A study of Caenorhabditis elegans with 4 samples.

Results

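Broad regions of PHA-4 binding were those peaks of a late-embryo ChIP-seq list that were wider than 1000 bp. They were selected on width alone, as the last base minus the first base plus 1, and 282 of 9165 peaks on the 6 chromosomes met this limit (3.08%). The other 8883 are named the remaining peaks here. Because width chose the regions, width and the q-value, which come from the same comparison of ChIP with input, are given as a description. Position and neighbours were not part of the choice, but a peak's own extent and its neighbours come from the same signal.

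PHA-4 is the FoxA factor of the nematode Caenorhabditis elegans and is known as the organ-identity factor of the pharynx, the muscular pump with which the worm feeds. It also acts in the gut and in other tissues of the digestive tract. FoxA proteins carry a forkhead DNA-binding domain and are known in other animals for reaching their sites in packed chromatin. In worm ChIP-seq maps a wide peak can hold several neighbouring sites of one factor, and some regions are known to be occupied by many factors at once; a peak list does not separate these.

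The study used chromatin of whole late embryos of strain OP37, grown at 20 °C. This hermaphrodite strain is in an unc-119(ed3) III background and carries the transgene wgIs37, which joins unc-119(+) with a tagged copy of the factor, pha-4::TY1::EGFP::3xFLAG, and was brought in by bombardment. The labels name no mutation of the endogenous pha-4 gene, and the antibody against GFP reports the tagged copy alone, in 1 transgenic line. There were 2 ChIP and 2 input libraries, 1 of each per replicate, and the list combines them. It holds no tag counts and no value per library, so no replicate error, no depth and no test between groups can be given. Exact (Clopper-Pearson) 95% binomial intervals of shares stand in brackets; they cover counting error only and treat peaks as independent, which neighbouring peaks are not. In whole embryos, binding in more cells and stronger binding in each cell cannot be told apart. Coordinates are WormBase WS180 positions as deposited. A genome or gene annotation of that build was not used here, so the regions are described by position and not by gene or sequence.

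The broad regions ran from 1001 to 4361 bp, with a median of 1290 bp and quartiles at 1112.5 and 1683 bp. The remaining peaks had a median of 305 bp. Most of the broad regions lay not far above the limit, with 189 (67.0%) at 1001 to 1500 bp, 56 (19.9%) at 1501 to 2000 bp and 37 (13.1%) above 2000 bp. Although they were 3.08% of the peaks, the broad regions covered 417 kb, or 12.2% of the 3407 kb under all peaks. On single chromosomes this share of bases ranged from 9.76% on I to 15.3% on X.

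No break in the list set the broad regions apart from the rest. There were 111 peaks at 901 to 1000 bp and 64 at 1001 to 1100 bp. Just above the limit lay a region of 1001 bp on chromosome II, 6838304 to 6839304 (q = 4.33e-25), another of 1001 bp on II, 7811764 to 7812764 (q = 3.08e-10), and one of 1003 bp on V, 1151172 to 1152174 (q = 4.94e-61). Just below it lay a peak of 1000 bp on IV, 15647584 to 15648583 (q = 1.74e-08), one of 999 bp on II, 13334934 to 13335932 (q = 6.46e-96), and another of 999 bp on V, 6488221 to 6489219 (q = 4.82e-06). The limit thus cuts through a continuous range of widths in which strong and weak q-values occur on both sides.

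The widest region of all lay on the X chromosome from 15273828 to 15278188, with a width of 4361 bp and q = 6.65e-157. It was the only region above 4000 bp. The next was on II from 6826657 to 6830292 (3636 bp, q = 2.74e-95), and then one on III from 12612193 to 12615770 (3578 bp, q = 4.26e-196). The widest on chromosome V, 20771429 to 20774535 (3107 bp, q = 1.73e-71), lay at 99.4% of that chromosome's span, and its nearest peak was 31485 bases away. A region of 3063 bp on III, 7727441 to 7730503 (q = 1.94e-85), and one of 3032 bp on X, 10765234 to 10768265 (q = 5.43e-190), completed the 6 regions above 3000 bp. These 6 thus came from II, III, V and X.

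Chromosomes I and IV had narrower extremes. The widest region on I was 7711459 to 7714359, with 2901 bp and q = 1.35e-160, and another peak began 210 bases from its edge. The widest on IV was 3231589 to 3234426, with 2838 bp and q = 5.90e-105. Among the 10 widest were also a region of 2924 bp on X, 9100662 to 9103585 (q = 4.11e-110), and one of 2814 bp on III, 5565434 to 5568247. The last of these had q = 4.17e-36, which placed it 460th in the list by q-value, so that great width did not always go with a top rank.

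Most broad regions scored well. Of the 282, 262 (92.9%) had a q-value below 1e-10, beside 30.3% of the remaining peaks, and 94 (33.3%) had one below 1e-50, beside 1.34%. The median −log10 of the q-value was 35.3 for broad regions and 5.72 for remaining peaks. Broad regions held 66 of the 100 best q-values in the list, and 198 (70.2%) stood among its best-scoring 916 peaks, or 10%. PeakSeq scores the tags of the whole region it reports, so width itself feeds into the q-value, and the 2 measures are not separate evidence. Among the broad regions alone, Spearman's rho between width and −log10 q was 0.47 (282 regions that share the same libraries), and it ranged from 0.36 on X to 0.60 on V.

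The 5 best q-values of the list all belonged to broad regions, at widths of 2502, 2448, 1084, 3578 and 1337 bp. The region of 1084 bp, on III from 8416928 to 8418011 (q = 3.75e-199), shows that a region near the width limit could score as well as one more than 3 kb wide. The best-scoring remaining peaks showed the same from the other side of the limit. The first was a peak of 971 bp on III, 1920851 to 1921821 (q = 2.54e-157), and the second one of 875 bp on I, 6174831 to 6175705 (q = 7.12e-137). The other 3 lay on X and were 690, 794 and 520 bp wide. The narrowest, 4711761 to 4712280, had q = 7.71e-104.

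Width without a strong q-value was rare. Only 7 broad regions (2.48%) fell in the poorer-scoring part of the list, below the first 4582 peaks, where 51.5% of the remaining peaks lay. The poorest q-value of a broad region, 4.56e-03, was that of V, 9394442 to 9395499 (1058 bp), which ranked 8371st. It was followed by X, 1643180 to 1644191 (1012 bp, q = 3.19e-03), and V, 10722649 to 10723756 (1108 bp, q = 5.33e-04). The next were IV, 14621588 to 14623037 (1450 bp, q = 1.85e-04), and V, 10711561 to 10712598 (1038 bp, q = 6.58e-06). Chromosome V thus supplied 3 of these 5. Across that chromosome the median −log10 q of broad regions was 25.2, the lowest of the 6, while on the others it lay between 35.7 on IV and 41.5 on II.

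**Figure D1:**
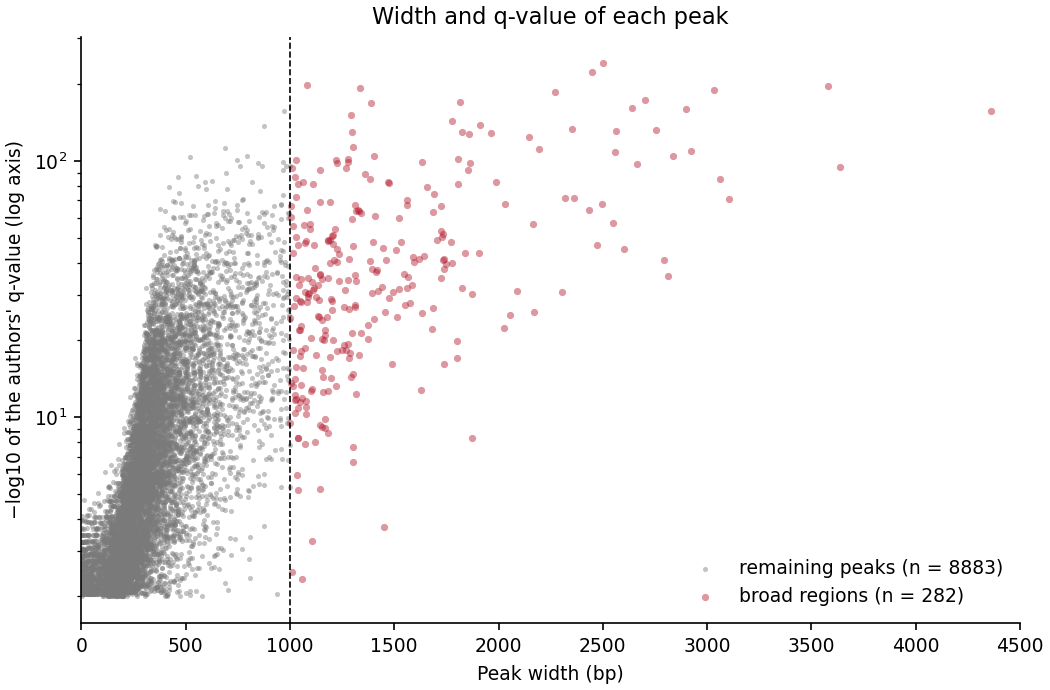
Width (bp) and −log10 of the authors' q-value (log axis) of each of 9165 peaks; red points are the 282 broad regions, grey points the 8883 remaining peaks, and the dashed line marks 1000 bp. The cloud runs through the limit without a gap, broad regions have a median −log10 q of 35.3 against 5.72, and a few broad regions lie near the bottom.

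The X chromosome held more broad regions than any autosome. It carried 72 of the 282, or 25.5% (20.5 to 31.0), beside 18.5% (17.6 to 19.3) of the remaining peaks. The autosomes carried between 38 and 45 each: 38 on I (13.5%), 45 on II (16.0%), 39 on III (13.8%), 44 on IV (15.6%) and 44 on V (15.6%). Their shares of the remaining peaks were 16.4% for I, 17.1% for II, 17.6% for III, 17.1% for IV and 13.4% for V. Each autosome's interval for broad regions, such as 9.72 to 18.0% for I, held its share of the remaining peaks. At the limit of 1000 bp, X was the exception among the 6, as the interval of its broad regions lay above that of the remaining peaks. With a limit of 800 bp, the intervals of I, II and V also left out their shares of the remaining peaks. They were 9.91 to 15.6% on I against 16.6%, 11.1 to 17.0% on II against 17.2%, and 13.4 to 19.8% on V against 13.3%. At 1000 bp, beside the best-scoring 10% of remaining peaks alone, the intervals of I, III and V left out the shares of 19.1%, 21.0% and 8.77%.

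Read per chromosome, 4.21% (3.31 to 5.27) of the peaks on X were broad, and 3.56% (2.60 to 4.75) of those on V. The share was 2.88% on II, 2.82% on IV, 2.54% on I and 2.44% (1.74 to 3.32) on III. For the 5 autosomes together it was 2.82% (2.45 to 3.22). Chromosome III, which had the most remaining peaks per Mb (113), thus had the smallest share of broad ones. Chromosome V had the fewest remaining peaks per Mb (57.0) and the second-highest broad share, though the intervals of the 5 autosomes overlapped. Per Mb of span, X had 4.08 broad regions, II 2.95, III 2.84, I 2.54, IV 2.52 and V 2.11. Sparse peaks on V therefore went with sparse broad regions as well, to a lesser degree.

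The share of X rose with width over most of the list, and above 2000 bp, where regions were few, its lead was unclear. X held 13.4% of peaks of at most 200 bp, 18.4% of those of 201 to 300 bp, 21.4% of those of 401 to 600 bp and 24.7% of those of 801 to 1000 bp. At 1001 to 1500 bp its share was 24.3% (18.4 to 31.1) and at 1501 to 2000 bp 33.9% (21.8 to 47.8). Above 2000 bp it held 7 of 37 regions, or 18.9% (7.96 to 35.2), and chromosome II held 10. That interval also holds X's share of all broad regions, 25.5%, and the widest region of all was on X. For all regions above 1500 bp its share was 28.0% (19.1 to 38.2), against 18.6% of the remaining peaks. The rise with width was already in the remaining peaks and was not particular to regions above 1000 bp. Chromosome III ran the other way, from 22.8% of peaks of at most 200 bp to 14.8% at 1001 to 1500 bp, though not steadily. Its share was 13.1% at 601 to 800 bp and 17.2% (12.9 to 22.3) at 801 to 1000 bp.

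When peaks separated by 1000 bases or fewer were first joined, the rule found 1242 regions and the lead of X fell to 20.8% against 18.5%. That joining turned the order on V, with 12.8% of broad regions against 14.2% of the remaining ones. On II and IV the broad share was not stably below that of the remaining peaks: it exceeded it on II above 1500 bp (19.4% against 17.0%) and after joining (16.7% against 16.4%). On IV it did so after joining (18.5% against 16.1%) and beside the remaining peaks of the best 10% (15.6% against 14.9%).

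**Figure D2:**
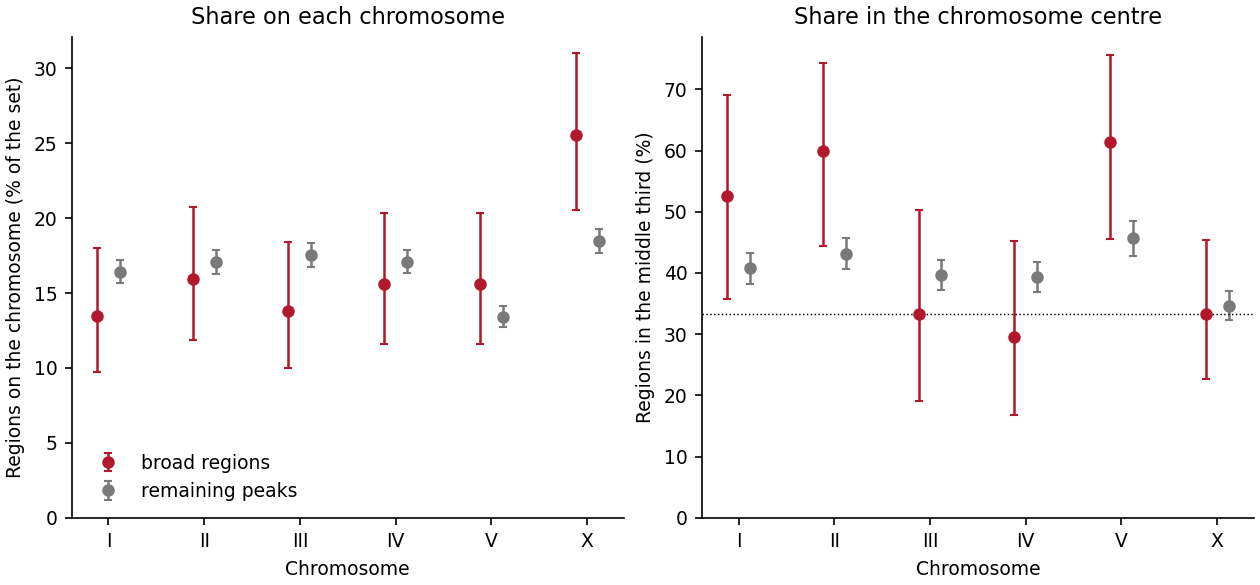
Left, share of each set on each chromosome (%); right, share of each chromosome's regions in the middle 33.3% of its span (%), with a dotted line at 33.3%. Points are shares of broad regions (red) and remaining peaks (grey), and bars are exact 95% binomial intervals that cover counting error only; X stands out on the left at 25.5% against 18.5%, and I, II and V lie above their remaining peaks on the right while III and IV lie below.

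Within the autosomes, the share of broad regions in the centres was somewhat above that of other peaks. The centre was taken as the middle 33.3% of the span from the first to the last peak of a chromosome, and autosome centres are known for low recombination and fewer repeats than the arms. It held 100 of 210 autosomal broad regions, or 47.6% (40.7 to 54.6), and 3008 of 7244 remaining peaks, or 41.5% (40.4 to 42.7). The intervals overlap, and the difference of 6.1 percentage points was not tested. Without chromosome II it was 3.16 points, without V 3.27 points and without IV 10.3 points. With a width limit of 800 bp it was 2.48 points (44.0% against 41.6%), and the peaks of 801 to 1000 bp alone had 40.3% in centres.

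The autosomes did not behave alike. The centre held 27 of 44 broad regions on V, or 61.4% (45.5 to 75.6), against 45.7% of the remaining peaks there. On II it held 27 of 45, or 60.0% (44.3 to 74.3), against 43.2%, and on I 20 of 38, or 52.6% (35.8 to 69.0), against 40.7%. On III it held 13 of 39, or 33.3% (19.1 to 50.2), against 39.6%, and on IV 13 of 44, or 29.5% (16.8 to 45.2), against 39.3%. Pooled after these values had been seen, I, II and V gave 58.3% (49.2 to 67.0) against 43.0%, and III and IV gave 31.3% (21.6 to 42.4) against 39.5%. The lower share on III and IV was not stable. With each cluster counted once it was 37.5% against 39.5%, with the middle 50% of the span as centre 59.0% against 59.4%, and after peaks were joined over up to 1000 bases 43.7% against 37.1%. On X the centre held 24 of 72 broad regions, or 33.3% (22.7 to 45.4), against 34.7% of the remaining peaks.

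The outer parts were used unequally. The left 33.3% of the autosomes held 42 broad regions (20.0%, 14.8 to 26.1) and the right 68 (32.4%, 26.1 to 39.2), while the remaining peaks of the 5 autosomes together had 29.6% on the left and 28.9% on the right. On II both sets leaned to the right, with 4 broad regions left and 14 right beside 356 and 506 remaining peaks. On V both leaned to the left, with 11 and 6 broad regions beside 364 and 283 remaining peaks. On IV the sets differed, with 11 and 20 broad regions beside 530 and 392 remaining peaks. The broad counts were 7 and 11 on I beside 444 and 420, 9 and 17 on III beside 448 and 493, and 22 and 26 on X beside 545 and 526. These counts are small, and the leans were not tested. With each span split into 10 equal parts from left to right, autosomal broad regions were most frequent in the seventh (17.6%, against 12.4% of remaining peaks) and least frequent in the second (3.81%, against 6.93%). The last held 23 regions (11.0%, against 8.30%) and the first 10 (4.76%, against 8.71%).

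Some broad regions sat at the very ends of chromosomes. The first peak of chromosome V, 8091 to 9177, was itself broad, with 1087 bp and q = 6.08e-31. The last 1% of the span held 2 on chromosome I, at 14945184 to 14946230 and 14952609 to 14953751, and 3 on III, from 13718371 to 13733062. It also held 1 on IV, at 17448248 to 17449402 (1155 bp, q = 2.24e-35), and the widest region of V. With the first peak of V, these 8 were the broad regions within 1% of either end. They made up 2.84% (1.23 to 5.51) of broad regions, and 2.25% (1.95 to 2.58) of remaining peaks lay there, a share inside the interval of the broad regions.

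Long stretches held no broad region. The longest, 3.73 Mb, ran on the right of chromosome V from 14832641 to 18557770 and contained 105 remaining peaks, or 28.2 per Mb, where the whole of V had 57.0. The next was 3.42 Mb on the right of I, from 11203678 to 14621567, with 247 remaining peaks (72.3 per Mb, against 97.4 on the chromosome). The one after that was 2.95 Mb on the left of V, from 1576829 to 4525520, with 103 remaining peaks (34.9 per Mb). Sparse peaks were not common to all such stretches. In 2.50 Mb on III, 9868315 to 12367889, 268 remaining peaks lay at 107 per Mb, near that chromosome's 113 per Mb.

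**Figure D3:**
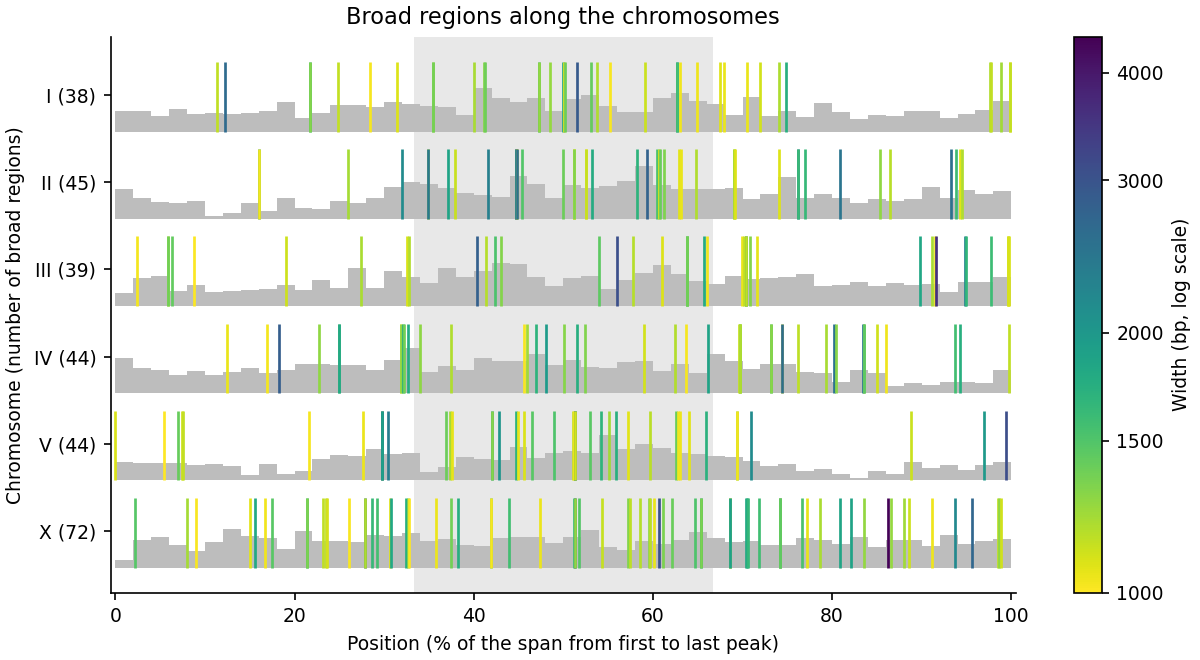
Position of each of the 282 broad regions as a percentage of its chromosome's span from first to last peak; line colour gives width (bp, log scale), grey profiles give the number of remaining peaks per 2% of span on 1 vertical scale, and the shaded band is the middle 33.3%. Lines crowd in the band on II and V (27 each), are spread along X (72), and are missing over long right-hand stretches of I and V.

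Broad regions had closer and more numerous neighbours than other peaks. Distances here are the bases between the facing edges of peaks, so that a region's own width does not lengthen them. The nearest other peak lay at a median of 777.5 bases from a broad region and 1794 bases from a remaining peak. Another peak lay within 5 kb of 251 of 282 broad regions, or 89.0% (84.8 to 92.4), against 75.2% (74.2 to 76.1) of remaining peaks. Neither trait was particular to regions above 1000 bp. Of peaks of 801 to 1000 bp, 89.5% (85.2 to 92.9) had a peak within 5 kb, and their nearest peak lay at a median of 835 bases. A broad region had 2.81 peaks within 5 kb on average, and a remaining peak 1.68. Peaks within 5 kb stood on both sides of 57.8% of broad regions (51.8 to 63.6) and of 29.5% of remaining peaks (28.6 to 30.5). At least 4 peaks lay within 5 kb of 96 broad regions (34.0%) and of 12.6% of remaining peaks.

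The same order held on every chromosome. On III all 39 broad regions had a peak within 5 kb, against 78.6% of the remaining peaks. The share was 93.3% against 78.0% on II, 90.9% against 77.1% on IV, 86.1% against 74.3% on X, 84.2% against 74.8% on I and 81.8% against 66.2% on V. Mean numbers of neighbours ran from 2.11 on V to 3.42 on II for broad regions and from 1.33 on V to 1.89 on II for remaining peaks. Chromosomes with many neighbours for remaining peaks thus also had many for broad regions.

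Strong q-values did not go with close neighbours as width did. The 718 remaining peaks among the best-scoring 916 had 1.76 peaks within 5 kb on average, near the 1.68 of all remaining peaks, and 78.3% (75.1 to 81.2) had at least 1. Broad regions within the best-scoring 916 had 2.75, and the 84 broad regions outside it had 2.95. Among the broad regions, the number of peaks within 5 kb had a Spearman's rho of 0.03 with −log10 q and of 0.13 with width, in each case over 282 regions from the same libraries. Over the whole list the mean number of neighbours was 1.67 up to 200 bp and then rose with width, from 1.52 at 201 to 300 bp to 1.85 at 401 to 600 bp and 2.36 at 801 to 1000 bp. It was 2.67 at 1001 to 1500 bp, 3.00 at 1501 to 2000 bp and 3.24 above 2000 bp, so that the limit of 1000 bp marks no step.

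Neighbours were most concentrated right beside the broad regions. At 200 to 500 bases from an edge there were 0.782 peaks per kb of flank, 2.72 times the 0.287 found beside remaining peaks. No 2 peaks of the list lay closer than 200 bases, and whether such close neighbours are pieces of the same enriched stretch was not tested. The excess was also present farther out. The ratio was 1.49 at 500 to 1000 bases, 1.45 at 1 to 2 kb, 1.66 at 2 to 3 kb, 1.58 at 3 to 5 kb and 1.47 at 5 to 10 kb. At 10 to 20 kb it was 1.07 and at 20 to 50 kb 0.975, so that the denser surroundings of broad regions reached about 10 kb from their edges.

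**Figure D4:**
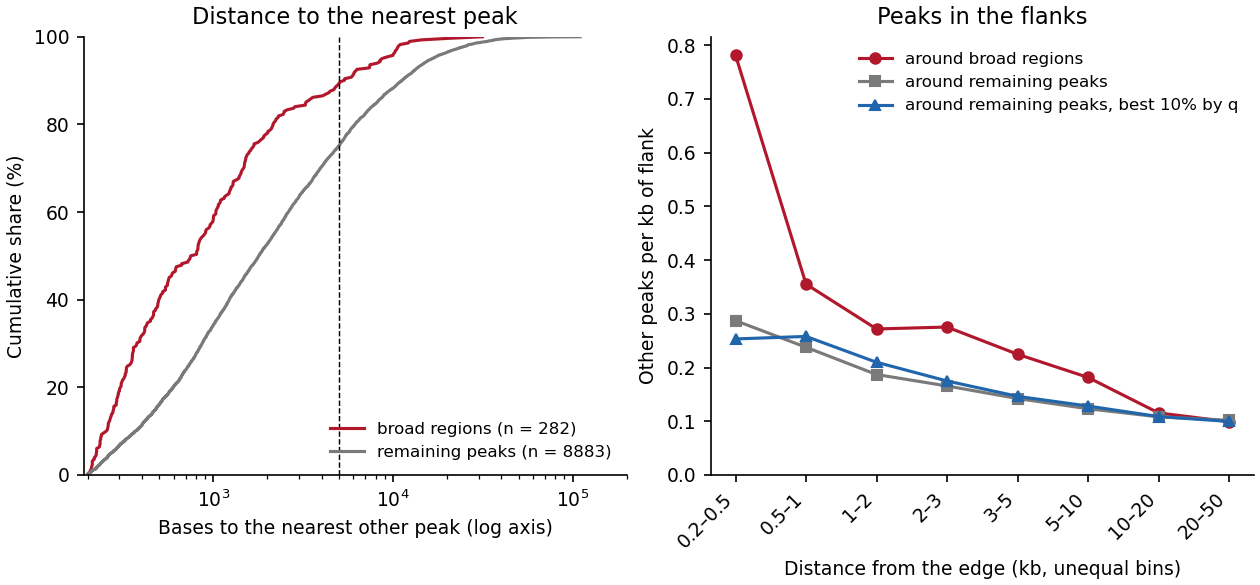
Left, cumulative share (%) of regions by bases to the nearest other peak (log axis, dashed line at 5 kb) for 282 broad regions (red) and 8883 remaining peaks (grey). Right, other peaks per kb of flank by distance from the edge (kb, unequal bins), with the remaining peaks of the best 10% in blue; the red line starts at 0.782 per kb and meets the others by 10 to 20 kb.

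Neighbours that were not broad themselves had q-values much like those of other remaining peaks. The 600 remaining peaks within 5 kb of a broad region had a median −log10 q of 5.63, against 5.72 for the 8283 farther away. They were a little wider, with a median of 357 bp against 303 bp, and 9.17% (6.98 to 11.8) of them stood among the best-scoring 916, where the interval for the others was 7.43 to 8.61%. Peaks narrower than 200 bp made up 18.2% of them and 19.9% of the others. A further 71 neighbours were broad regions, with a median −log10 q of 32.0, and 60.6% (48.3 to 72.0) of these stood among the best-scoring 916. For the 211 broad regions farther than 5 kb from any other broad region, the values were 36.0 and 73.5% (67.0 to 79.3).

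The most crowded broad region was the widest on chromosome II, 6826657 to 6830292, with 9 peaks within 5 kb. A second region of the same cluster, 6835284 to 6837636 (2353 bp, q = 3.87e-134), had 8. The other region with 8 was on V, 14500655 to 14501684, which was only 1030 bp wide (q = 1.83e-12). At the other extreme, 31 broad regions (11.0%, 7.59 to 15.2) had no peak within 5 kb, against 24.8% of remaining peaks.

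The most isolated broad regions differed widely in strength. After the widest region of V, at 31485 bases, came X, 9187160 to 9188649 (1490 bp, q = 6.98e-17), at 20592 bases from its nearest peak. It was followed by X, 2996461 to 2997491, at 14448 bases, a region of 1031 bp with q = 1.73e-101. The next were V, 14830470 to 14832640 (2171 bp, q = 1.80e-26), at 12366 bases, and I, 8852273 to 8853397 (1125 bp, q = 5.19e-30), at 12183 bases. The best-scoring peak of the whole list was also without a neighbour in 5 kb. It lay on IV from 14032471 to 14034972 (2502 bp, q = 1.38e-240).

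Broad regions also lay near each other. Another broad region was within 20 kb of 107 of the 282, or 37.9% (32.3 to 43.9), whereas a broad region was within 20 kb of 15.2% (14.4 to 15.9) of remaining peaks. Among the remaining peaks this share rose with width, from 15.8% at 401 to 600 bp to 22.2% at 601 to 800 bp and 27.3% (22.1 to 33.1) at 801 to 1000 bp, so it was not particular to regions above 1000 bp. Within 5 kb the shares were 25.2% (20.2 to 30.7) and 6.75% (6.24 to 7.30), and within 1 kb 15.6% (11.6 to 20.4) and 2.05% (1.76 to 2.37). Above 1500 bp, where fewer regions qualify, another was within 20 kb of 20.4%, against 6.37% of the remaining peaks. The nearest peak of a broad region was itself broad in 41 cases (14.5%), against 3.20% for remaining peaks. The remaining peaks of the best 10% were no nearer to broad regions than other remaining peaks, with 15.7% (13.2 to 18.6) within 20 kb of one.

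By chromosome, the share of broad regions with another within 20 kb was 46.7% on II (21 of 45), 42.1% on I (16 of 38), 38.6% on IV (17 of 44) and 38.5% on III (15 of 39). It was 34.7% on X (25 of 72) and 29.5% on V (13 of 44). These 6 intervals overlapped. X, with the most broad regions per Mb, did not have the most clustered ones. Without X the share was 39.0%, against 14.1% of the remaining peaks.

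Linked over gaps of at most 20 kb, the 282 regions formed 175 single regions, 32 pairs, 10 groups of 3, 2 groups of 4 and 1 group of 5. Of the 62 gaps inside these 45 clusters, 16 were of at most 500 bases, and 29 (46.8%) held no other peak. The smallest gap between 2 broad regions was 212 bases, on I from 3246049 to 3249316. Counted in 1000 blocks of about 100 kb, 798 held no broad region, 145 held 1, 39 held 2, 14 held 3, 3 held 4 and 1 held 5. The mean number of remaining peaks was 8.28 in blocks without a broad region, 10.8 beside 1, 12.2 beside 2 and 14.4 beside 3. The 3 blocks with 4 broad regions were no richer than blocks without any, with a mean of 8.33, and the block with 5 had 16. Across the 1000 blocks, which share libraries, Pearson's r between the numbers of broad regions and remaining peaks was 0.25 and Spearman's rho 0.25. The gene density of the blocks was not measured.

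The group of 5 was on chromosome II from 6826657 to 6844979, at 44.8% of the span. Over 18.3 kb it held regions of 3636, 1283, 2353, 1001 and 2547 bp, with 4 other peaks between them, and peaks covered 74.1% of its length. Its q-values ran from 4.33e-25 to 3.87e-134, so each of the 5 was strong in the authors' scoring. The block that contains it, 6787638 to 6887453, had 16 remaining peaks as well and was the richest in broad regions.

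The groups of 4 were weaker. That on V, 10711561 to 10723756, was 12.2 kb long, with 2 regions of 2087 and 2304 bp (q = 1.14e-31 and 1.36e-31) in the middle. They were flanked by 2 of the poorest-scoring broad regions of the list, of 1038 and 1108 bp (q = 6.58e-06 and 5.33e-04), with no other peak among the 4. That on IV, 12198771 to 12208590, held regions of 1138, 1261, 1249 and 1197 bp, with q-values from 1.80e-29 to 6.96e-15. Gaps inside it were 217 to 4194 bases. The blocks of about 100 kb around these groups each held 4 broad regions, as did 1 on III from 9657722 to 9758056.

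Groups of 3 ranged from 4.57 to 19.9 kb in length. The shortest was on II from 7809982 to 7814554, where regions of 1133, 1001 and 1329 bp and 1 peak of 79 bp covered 77.5% of the stretch. The strongest throughout was on III from 8794321 to 8802666, with regions of 1823, 1294 and 1390 bp and q-values of 4.68e-130, 3.25e-151 and 4.67e-168. A group on V from 6220802 to 6228821 joined unlike members, of 1301 bp (q = 2.12e-07), 2795 bp (q = 1.36e-41) and 1909 bp (q = 1.32e-138), with no other peak between. The group on IV from 14610795 to 14623037 likewise joined a first region with q = 7.43e-69 and a last one with q = 1.85e-04. Of the remaining groups of 3 that are shown, 3 were on X, 2 on III and 1 on II.

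Clusters were not confined to autosome centres. Of the 34 autosomal clusters, 13 lay in centres and 21 in the outer parts, and 11 further clusters were on X. Of the 82 autosomal broad regions in clusters, 33 were in centres and 49 in the outer parts. For comparison, centres held 100 of all 210 autosomal broad regions (47.6%), and the difference was not tested. When each cluster was counted once, by its widest region, X held 58 of 220 (26.4%) and autosome centres 80 of 162 (49.4%). Both shares were thus as high as when every region of a cluster was counted.

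**Figure D5:**
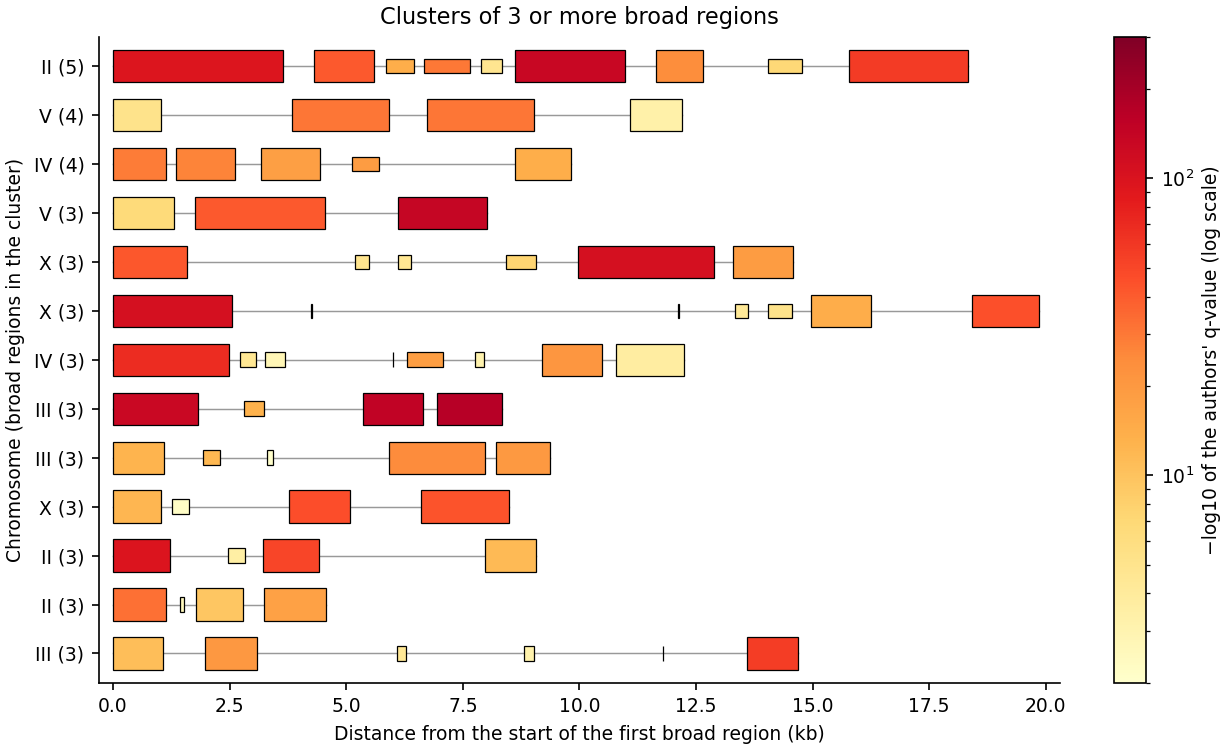
The 13 clusters of 3 or more broad regions, by chromosome, with distance in kb from the start of the first; tall boxes are broad regions, low boxes other peaks, and colour gives −log10 of the authors' q-value (log scale). The top row is the group of 5 on II over 18.3 kb. Below it, the group of 4 on V pairs stronger with weaker regions, and the group of 4 on IV has q-values from 1.80e-29 to 6.96e-15.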

How the data were processed

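Each of the 9165 entries of the deposited list gives coordinates and the q-value from the authors' peak caller. Peaks came from PeakSeq on WormBase WS180, per the file headers and columns, combined over 2 ChIP and 2 input libraries. Aligner, software versions and filters: not given in the sources used here. Both deposited copies of the q-value were identical in 9165 peaks, and the highest was 0.00997. Embryos were fixed in 2% formaldehyde, per the labels' protocols.

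From these, widths, gaps, neighbours within 5 kb, clusters (gaps of at most 20 kb) and blocks of about 100 kb were computed in Python 3.11.15 with pandas 2.3.3 and scipy 1.17.1. Neighbour and cluster counts were tested on a simulated list of 2400 peaks, with 0 errors. No test was run, because the list has no values per library. Named regions followed fixed rules (widest, poorest q-value, nearest the limit, best q-value, most isolated, most neighbours, largest clusters, longest empty stretches). The regions near chromosome ends and the 5 best q-values were named after their values were seen. Regions and rules were chosen with earlier results of these data known. Alternatives are given at the end.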

Additional observations from a re-analysis of the deposited data

How the results depend on the processing

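Of 109 recomputed values, 80 kept their order against the remaining peaks and stayed close to the reported value (a share within its interval, the number of regions within 1.5 times, the median width within 10%), 18 moved further and 11 turned their order. The number of broad regions was 549 above 800 bp, 93 above 1500 bp and 1242 after joining over up to 1000 bases, by construction. In the 1500 bp set the share on I fell to 8.60% (3.79 to 16.2), against 16.4% of the remaining peaks. After joining it was 14.7% (12.8 to 16.8), against 17.1%. The order of broad and remaining shares turned on II (19.4% above 1500 bp, 16.7% after joining), on IV (18.5% after joining, 15.6% beside the best 10%), on V (12.8% after joining) and in the centres of III and IV (43.7% after joining). In the centre of X it turned to 36.96% above 800 bp, 33.3% at q of at most 1e-10 and beside the best 10%, 34.9% after joining and 61.1% with the middle 50% of the span as centre. With that wider centre autosomes gave 69.0%, against 60.8% of remaining peaks. A neighbour was present for 63.7% at q of at most 1e-10 (40.3% of remaining peaks), 72.0% after joining (62.2%), 77.7% within 2 kb and 95.7% within 10 kb. Another broad region was near 48.3% above 800 bp, 20.4% above 1500 bp, 51.6% after joining (44.7% of remaining peaks) and 47.9% within 50 kb. By construction, a lower width limit raises the number of broad regions and a higher one lowers it. A longer distance or a wider centre can only raise a share, and a shorter distance can only lower it. The q limit of 1e-10 left 2951 of 9165 peaks, and joining left no neighbour within 1000 bases. These settings thus removed possible neighbours. What lay behind the other shifts was not tested. Counting each cluster once, comparison with the best 10% and leaving out X were chosen after seeing the data. No paired analysis was possible because no deposited value belongs to a single library; leaving out a replicate was not run for the same reason. Depth limits cannot be given without tag counts.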
